A study of Homo sapiens with 10 samples.

Results

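Aminoacyl-tRNA synthetases are the enzymes that attach each amino acid to its tRNA. The genes described here are 35 nuclear genes with such an enzyme as product, 19 for the cytosol and 16 for mitochondria, chosen by name from the gene family. Earlier results of these data were known when they were chosen. Reads were found for 33 of the 35 among the 31015 genes of the libraries, 30 passed the filter on low counts in nascent RNA and 33 in total RNA. All libraries were made by SLAM-seq from 22RV1 cells, which grow as a line from a human prostate carcinoma. In this method 4-thiouridine (4sU) is built into new RNA, and alkylation makes labelled positions read as T>C conversions, so that reads with a conversion stand for RNA made during the label. The label was given for the last 10 min. There were 5 groups of 2 libraries each, and every group received 4sU: untreated cells as the control, and cells that were kept for 4 h in SRPIN340 (20 μM, an inhibitor of the splicing kinase SRPK1), in Endovion (50 μM, which the study also used against SRPK1), in THZ531 (an inhibitor of the transcription kinases CDK12 and CDK13) or in THZ531 and Endovion together. The dose of THZ531 is 100 nM in the methods and 150 nM in the description of the series. All groups are of 1 cell line, the labels do not say whether replicates were separate cultures, and p-values therefore measure the spread between these libraries.

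Cytosolic and mitochondrial protein synthesis use separate sets of synthetases, and both sets are encoded in the nucleus. Most amino acids have a synthetase gene for each compartment, whereas the products of KARS1 and GARS1 serve both. Several cytosolic enzymes, among them EPRS1, IARS1, LARS1, MARS1, QARS1, KARS1 and RARS1, are held together in the multi-synthetase complex. Many genes for cytosolic synthetases are known targets of ATF4, the transcription factor of the amino acid response, which binds as a partner of C/EBP family proteins such as CHOP to a composite element in the DNA.

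The core of that composite element, written TGATGNAA, was searched on both strands in RefSeq promoter windows that reach from 250 bases before to 50 bases after the gene start. The letters occurred in 8 of the 30 windows found for these genes (26.7%), against 1217 of all 27305 windows (4.46%). Among cytosolic synthetases 7 of 16 windows (43.8%) held them, and among mitochondrial ones 1 of 14 (7.14%). TARS1 and IARS1, whose rise is described below, are 2 of the 8 genes with the letters. IARS2 and EPRS1, which also rose in total RNA, have windows without them. The letters were chosen with earlier results of these data known, and whether they take part in any change was not tested. All 8 matches are shown. Each is given 5′ to 3′ on the strand that reads TGATGNAA, in GRCh38.p14, with those letters in capitals and 11 bases on either side.
TARS1 (chr5:33440956-33440985, minus strand): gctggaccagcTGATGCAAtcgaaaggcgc
IARS1 (chr9:92293692-92293721, plus strand): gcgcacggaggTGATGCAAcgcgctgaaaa
MARS1 (chr12:57488053-57488082, minus strand): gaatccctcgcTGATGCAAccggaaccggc
AARS1 (chr16:70289675-70289704, plus strand): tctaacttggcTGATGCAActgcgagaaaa
CARS1 (chr11:3057407-3057436, plus strand): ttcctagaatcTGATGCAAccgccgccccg
NARS1 (chr18:57621804-57621833, minus strand): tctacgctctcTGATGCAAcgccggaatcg
GARS1 (chr7:30594834-30594863, minus strand): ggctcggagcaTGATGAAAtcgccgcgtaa
YARS2 (chr12:32756076-32756105, minus strand): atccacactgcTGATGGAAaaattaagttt
The cytosolic genes TARS1, IARS1, MARS1, AARS1, CARS1 and NARS1 share the letters TGATGCAA, whereas GARS1 and the mitochondrial gene YARS2 have another base at the open position. The letters are a description of the windows, and binding was not measured. No window was found for LARS1, VARS1, YARS1, AARS2 and VARS2.

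The libraries held 19315565 to 30047926 reads on genes, of which 1011605 to 1576125 had a conversion, and the labelled share of all reads was 5.04% to 5.70%. All 7 markers of the prostate epithelial lineage had reads in every library, with a sum of 841 to 1376 counts per 1000000 reads (CPM), whereas the 6 markers of blood, fibroblast and endothelial cells summed to 2.17 to 4.65 CPM, with VWF at 0. In total RNA 0 of the 7 prostate markers fell with SRPIN340, 2 with Endovion, 5 with THZ531 and 5 with both agents, where 0.143%, 2.53%, 14.1% and 12.4% of all genes fell. Their part in the results below was not tested. VARS1 and VARS2, the valine enzymes of both compartments, had 0 reads in all 10 libraries. By counting error alone this allows up to 0.0998 to 0.155 CPM, a limit that holds only where reads of a gene can be counted. Both genes lie in a window of chromosome 6, from 29.7 to 33.4 Mb, in which 536 of 583 intervals (91.9%) had 0 reads everywhere, against 40.9% on the rest of that chromosome. Whether reads from this window could be counted was not tested, so the expression of VARS1 and VARS2 is not known here. CARS1, for cysteine in the cytosol, had 0 to 17 reads per library, so its fitted values, shown in plots as open points, carry a large error. CARS1, CARS2 and RARS2 did not pass the filter in nascent RNA.

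In control cells the labelled share of reads, which sets new RNA against all RNA of the same gene, differed widely between synthetases. Over the 17 cytosolic genes tested the median share was 3.84% and over the 13 mitochondrial genes it was 5.09%. EPRS1, which charges both glutamate and proline, had the highest cytosolic share, with 12.9% (95% Wilson interval 11.6 to 14.4%) and 22.0% (20.0 to 24.2%) in the 2 control libraries. AARS1, for alanine, followed at 13.6% ± 1.84 (SD, n = 2). The next was MARS1, for methionine, with a share of 6.02%. RARS1, for arginine, had the lowest cytosolic share, 2.45% (1.78 to 3.35%) and 1.29% (0.819 to 2.03%). Among mitochondrial genes the share was highest for YARS2, for tyrosine, with 11.4% (8.87 to 14.6%) and 16.5% (12.7 to 21.0%), ahead of MARS2 at 10.4% and IARS2 at 10.3%. It was lowest for TARS2, for threonine, with 2.27% (1.59 to 3.24%) and 2.07% (1.35 to 3.18%). The control libraries of EPRS1 did not overlap those of any other cytosolic gene but AARS1, which reached 14.9%. A read can carry a conversion only where the sequence has T, so shares of different genes also depend on their sequence. Ranked by conversions per covered T instead, EPRS1 and YARS2 were still first of their compartments and RARS1 last, whereas TARS2 moved from rank 13 to rank 7.

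**Figure D1:**
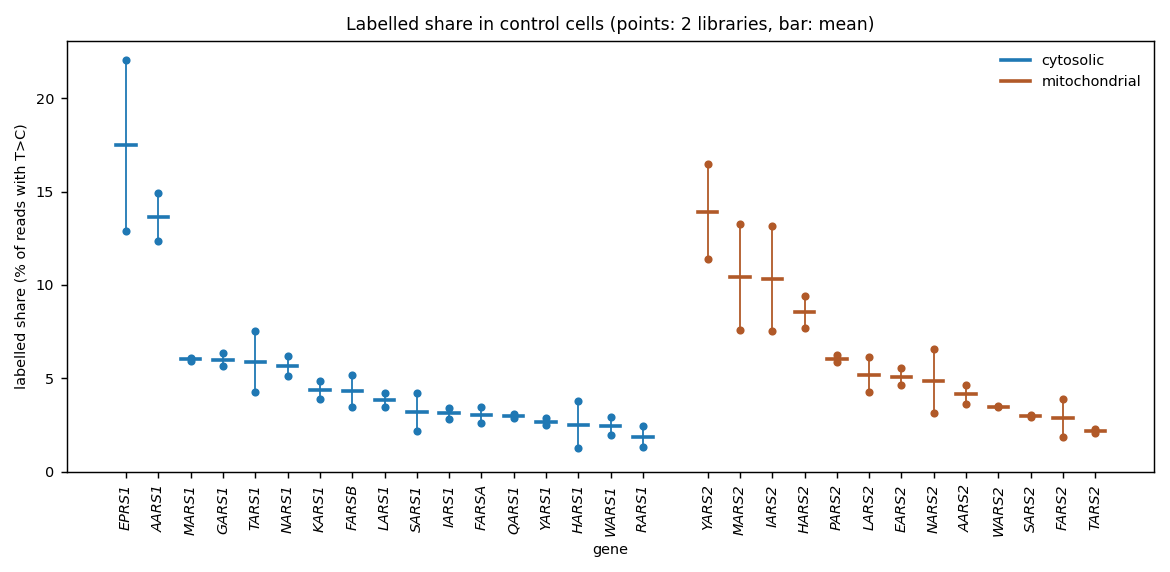
Labelled share (percent of reads with a T>C conversion, vertical axis) of each synthetase gene tested in nascent RNA in control cells, with cytosolic genes on the left and mitochondrial genes on the right. Points are the 2 libraries and bars their mean. EPRS1 and AARS1 stand above the other cytosolic genes, whose means reach 6.02%, and YARS2, MARS2 and IARS2 have the highest mitochondrial means.

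Nascent RNA of most synthetases passed no test in any treatment, and TARS1, the cytosolic threonine enzyme, was the one that rose most often. Genes were called at a Benjamini-Hochberg adjusted p under 0.05 over all genes tested, by edgeR's quasi-likelihood test. With SRPIN340 0 of 30 synthetases were called, where 1.04% of all 9946 genes were. DESeq2 also called 0, and 2 had an unadjusted p under 0.05 in edgeR (10.4% of all genes). With Endovion 1 rose and 0 fell, where 2.66% of all genes were called (2.04% up, 0.623% down). With THZ531 1 rose and 1 fell, where 7.46% of all genes were called (3.86% up, 3.6% down). With THZ531 and Endovion 2 rose and 0 fell, where 8.1% of all genes were called (4.61% up, 3.49% down). At the study's own threshold, an unadjusted p under 0.05 and a change of 1 or more on the log2 scale, 1 synthetase passed with SRPIN340 (background 4.66%), 2 with Endovion (6.49%), 2 with THZ531 (12%) and 3 with both agents (11.3%). These comparisons share the same 2 control libraries and are not independent of each other.

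TARS1 lies at chr5:33440696-33468091 on the plus strand. Its T>C reads numbered 67 and 73 in the control libraries, 111 and 166 with SRPIN340, 144 and 116 with Endovion, 190 and 97 with THZ531, and 127 and 148 with both agents. In counts per 1000000 T>C reads (CPM), the controls stood at 43.1 and 58.6 and the treated libraries between 75.1 and 146, so that every treated library was above both controls. The share of all genes with such a separation was not computed, here or for the genes below. In bulk libraries, a change in the number of cells with an mRNA and a change in its level per cell cannot be told apart. The nascent log2 fold change of TARS1 was 1.13 (SE 0.26, adjusted p = 0.00448) with Endovion, 1.14 (SE 0.26, adjusted p = 0.00203) with THZ531 and 1.32 (SE 0.26, adjusted p = 0.000287) with both agents. With SRPIN340 it was 0.83 (SE 0.26, adjusted p = 0.12) and was not called, although it had the smallest p of any synthetase there. The calls of TARS1 with Endovion and with THZ531 were each lost when 1 library was left out: the highest adjusted p was 0.0989 with Endovion (without control replicate 1 or Endovion replicate 1, or in a plain sum of intervals) and 0.0673 with THZ531 (without THZ531 replicate 1, or in a plain sum). The call with both agents held under all 18 alternatives.

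IARS1, the cytosolic isoleucine enzyme, lies at chr9:92210207-92293854 on the minus strand. Its T>C reads numbered 40 and 18 without treatment, 67 and 59 with SRPIN340, 46 and 54 with Endovion, 72 and 31 with THZ531, and 87 and 51 with both agents. In CPM of T>C reads the controls were at 25.7 and 14.4, and the lowest treated library was at 31.5. All treated libraries were thus above both controls, on low counts. IARS1 rose in nascent RNA with both agents, by a log2 fold change of 1.60 (SE 0.37, adjusted p = 0.0027). Its other nascent values, 1.01 with SRPIN340 (adjusted p = 0.238), 1.08 with Endovion (0.124) and 0.96 with THZ531 (0.11), were not called. The call was lost without control replicate 2 and without replicate 1 of the combination, where the adjusted p was at most 0.119.

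AARS1 was the one synthetase whose nascent RNA fell. It lies at chr16:70251983-70289707 on the minus strand, and its T>C reads numbered 494 and 595 in control cells, 530 and 597 with SRPIN340, 562 and 434 with Endovion, 440 and 261 with THZ531, and 375 and 410 with both agents. In CPM of T>C reads, the THZ531 libraries were at 286 and 265, below the controls at 318 and 477. The log2 fold change with THZ531 was -0.52 (SE 0.17, adjusted p = 0.0467). This call was lost under 10 of 18 alternatives, in which the adjusted p reached 0.66. With both agents AARS1 was at 318 and 403 CPM of T>C reads, from the level of the lower control library to between the 2 controls, with a log2 fold change of -0.14.

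Of the synthetases that were not called, IARS2, the mitochondrial isoleucine enzyme, had the smallest p with Endovion and with both agents. Its T>C reads were 126 and 127 in control cells, 138 and 226 with SRPIN340, 204 and 148 with Endovion, 191 and 137 with THZ531, and 182 and 126 with both agents. The nascent log2 fold change was 0.71 (SE 0.23, adjusted p = 0.0787) with Endovion and 0.61 (SE 0.23, adjusted p = 0.0876) with both agents. PARS2, the mitochondrial proline enzyme, had the smallest p among uncalled genes with THZ531. It had 15 such reads in each control library, 13 in each SRPIN340 library, 20 and 5 with Endovion, 3 and 0 with THZ531, and 3 and 2 with both agents. The adjusted p of PARS2 in nascent RNA was 0.0632 with THZ531 and 0.183 with both agents. No fold change is given on counts this low.

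**Figure D2:**
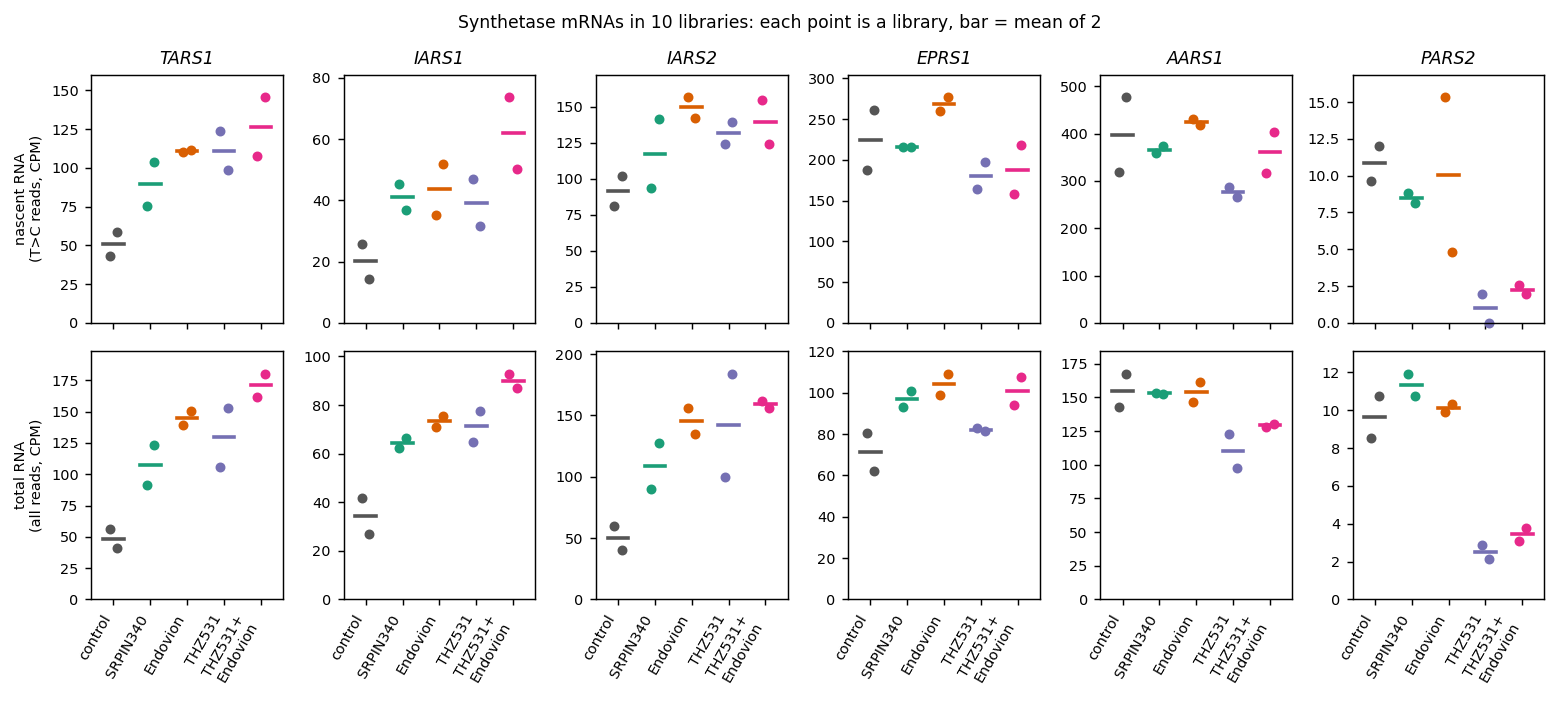
Levels of 6 synthetase mRNAs in each of the 10 libraries by treatment, as nascent RNA (top row, CPM of T>C reads) and total RNA (bottom row, CPM of all reads). Points are libraries and bars the mean of 2. In total RNA every treated library of TARS1, IARS1 and IARS2 lies above both controls, and PARS2 lies below both controls with THZ531, at 2.88 and 2.14, and with THZ531 and Endovion, at 3.11 and 3.77.

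In total RNA more synthetases passed the test, and so did more genes in general. With SRPIN340 2 of 33 rose and 0 fell, where 1.96% of all 14690 genes were called (1.82% up, 0.143% down). With Endovion 5 rose and 1 fell, beside 11.4% of all genes (8.9% up, 2.53% down). With THZ531 5 rose and 6 fell, beside 30.7% (16.6% up, 14.1% down). With THZ531 and Endovion 6 rose and 3 fell, beside 29% (16.6% up, 12.4% down). With THZ531 and with both agents the share of synthetases called was thus near that of all genes. At the study's threshold 4 passed with SRPIN340 (background 4.22%), 4 with Endovion (6.88%), 5 with THZ531 (14.8%) and 7 with both agents (13.8%). CARS1 was among those that passed with SRPIN340 and with both agents, on very few reads. It stood at 0 and 0.178 CPM in control cells, 0.540 and 0.561 with SRPIN340, and 0.482 and 0.628 with both agents. TARS1 and IARS1 rose in all 4 comparisons. Without control replicate 2 the numbers called dropped to 0 with SRPIN340, 2 with Endovion (TARS1 and IARS1), 3 with THZ531 and 3 with both agents (TARS1, IARS1 and PARS2 in each).

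TARS1 had 1577 and 969 reads in control cells, which is 56.2 and 40.8 CPM. It was at 91.6 and 123 CPM with SRPIN340, 139 and 151 with Endovion, 106 and 153 with THZ531, and 162 and 180.1 with both agents. The total log2 fold change was 1.15 (SE 0.21, adjusted p = 0.0298), 1.58 (SE 0.21, adjusted p = 0.00249), 1.41 (SE 0.21, adjusted p = 0.00074) and 1.82 (SE 0.21, adjusted p = 0.000195) in that order. Every treated library of TARS1 was above both controls, of which replicate 2 was the lower. IARS1 had 41.9 and 26.8 CPM in control cells, 62.3 and 66.5 with SRPIN340, 71.0 and 75.6 with Endovion, 64.7 and 77.6 with THZ531, and 92.8 and 87.0 with both agents. Its total log2 fold change was 0.91 (SE 0.17, adjusted p = 0.0234), 1.09 (SE 0.17, adjusted p = 0.00249), 1.05 (SE 0.17, adjusted p = 0.000505) and 1.39 (SE 0.17, adjusted p = 8.15e-05). Both genes kept their calls with Endovion, with THZ531 and with both agents under all 17 alternatives. With SRPIN340 the call of TARS1 was lost under 9 and that of IARS1 under 4 of the 17.

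IARS2 lies at chr1:220094132-220148041 on the plus strand, and EPRS1 lies on the same chromosome at chr1:219968600-220046530 on the minus strand. IARS2 stood at 59.6 and 40.7 CPM in control cells, 90.4 and 128 with SRPIN340, 156 and 135 with Endovion, 99.8 and 184 with THZ531, and 162 and 156 with both agents. No treated library overlapped the controls. It rose with Endovion by a log2 fold change of 1.54 (SE 0.34, adjusted p = 0.0348), with THZ531 by 1.50 (SE 0.34, adjusted p = 0.0169) and with both agents by 1.66 (SE 0.34, adjusted p = 0.0123), and its value with SRPIN340 was 1.12 (adjusted p = 0.146). EPRS1 stood at 80.6 and 62.2 CPM in control cells, 98.9 and 109 with Endovion, and 94.2 and 108 with both agents. EPRS1 rose with Endovion, by 0.54 (SE 0.13, adjusted p = 0.018), and with both agents, by 0.50 (SE 0.13, adjusted p = 0.0112), while its nascent log2 fold changes were 0.26 and -0.26. Without control replicate 2 the calls of IARS2 and EPRS1 were all lost, with the adjusted p reaching 0.263 for IARS2 and 0.265 for EPRS1 over the alternatives.

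4 other synthetases rose in total RNA in at least 1 comparison. MARS1 was at 133 and 109.8 CPM in control cells and at 160.2 and 175 with Endovion, and rose there by a log2 fold change of 0.46 (SE 0.11, adjusted p = 0.0186). MARS1 also had the smallest p among uncalled genes with SRPIN340, at 0.40 (adjusted p = 0.0787), and with both agents, at 0.30 (adjusted p = 0.0607). It overlaps DDIT3 on the opposite strand. YARS2 was at 17.2 and 13.04 CPM in control cells, 23.2 and 30.1 with THZ531 and 25.5 and 29.5 with both agents, and rose by 0.81 (SE 0.20, adjusted p = 0.00674) and 0.86 (SE 0.20, adjusted p = 0.00516). Its T>C reads were 55 and 51 in control cells, 59 and 44 with THZ531, and 68 and 61 with both agents. NARS2, the mitochondrial asparagine enzyme, was at 15.8 and 12.2 CPM in control cells and 20.4 and 24.6 with THZ531, and rose by 0.68 (SE 0.18, adjusted p = 0.00906). GARS1, for glycine, was at 159.7 and 170.0 CPM in control cells and 217 and 214 with both agents, and rose by 0.39 (SE 0.12, adjusted p = 0.0195). The calls of MARS1, YARS2, NARS2 and GARS1 were all lost without control replicate 2.

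MARS2, the mitochondrial methionine enzyme, showed large values that were not called. It stood at 25.5 and 13.3 CPM in control cells and at 36.0 and 54.0 with SRPIN340, 50.5 and 48.3 with Endovion, 39.5 and 62.3 with THZ531, and 32.0 and 58.8 with both agents. Every treated library of MARS2 was above both controls, a separation whose share over all genes was not computed. Its total log2 fold changes were 1.21, 1.34, 1.38 and 1.22 in that order, with adjusted p-values of 0.225, 0.119, 0.0654 and 0.0964. TARS2 had the smallest p among uncalled genes with Endovion, at a total log2 fold change of 0.37 (SE 0.14, adjusted p = 0.107).

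PARS2 had the largest fall in total RNA, and it fell with both treatments that held THZ531. It lies at chr1:54756898-54764523 on the minus strand. Its reads numbered 240 and 256 in control cells, 319 and 339 with SRPIN340, 259 and 209 with Endovion, 78 and 40 with THZ531, and 71 and 72 with both agents. The control, SRPIN340 and Endovion libraries stood at 8.56 to 11.9 CPM and the libraries with THZ531 at 2.14 to 3.77, with no overlap. The total log2 fold change was -1.93 (SE 0.24, adjusted p = 5.3e-05) with THZ531 and -1.49 (SE 0.24, adjusted p = 0.000375) with both agents, and both calls held under all 17 alternatives. With SRPIN340 it was 0.23 and with Endovion 0.07.

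AARS2, the mitochondrial alanine enzyme, also fell with both treatments that held THZ531. It stood at 7.84 and 9.93 CPM in control cells, 6.01 and 3.59 with THZ531 and 4.91 and 3.30 with both agents, with a total log2 fold change of -0.87 (SE 0.28, adjusted p = 0.0254) and -1.11 (SE 0.28, adjusted p = 0.00823). The SRPIN340 and Endovion libraries of AARS2, at 5.74 to 6.39 CPM, were also below both controls, and these differences were not called. AARS1 was at 143 and 167 CPM in control cells and 123 and 97.9 with THZ531, and fell by 0.49 on the log2 scale (SE 0.13, adjusted p = 0.00829). CARS2, the mitochondrial cysteine enzyme, was at 19.6 and 20.3 CPM in control cells and 14.7 and 11.4 with THZ531, and fell by 0.61 (SE 0.19, adjusted p = 0.0218). With both agents AARS1 stood at 128 and 130.1 and CARS2 at 17.9 and 17.5 CPM, and neither was called. The calls of AARS1, CARS2 and AARS2 were each lost without control replicate 2.

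4 further calls in total RNA were small. SARS2, the mitochondrial serine enzyme, stood at 24.3 and 31.8 CPM in control cells and 21.3 and 19.7 with THZ531, and fell by 0.45 (SE 0.16, adjusted p = 0.0422). It overlaps another annotated gene on the same strand, so its reads may be shared. RARS1 stood at 53.9 and 58.6 in control cells and 44.6 and 45.0 with THZ531, and fell by 0.33 (SE 0.12, adjusted p = 0.0493). WARS2, the mitochondrial tryptophan enzyme, stood at 112 and 117 CPM in control cells and 85.9 and 89.0 with Endovion, and fell by 0.39 (SE 0.11, adjusted p = 0.0324). FARSA, a subunit of the cytosolic phenylalanine enzyme, stood at 134 and 165 in control cells and 111 and 114 with both agents, and fell by 0.41 (SE 0.12, adjusted p = 0.0185). The treated libraries of SARS2, RARS1, WARS2 and FARSA lay below both controls in these comparisons. How often this holds over all genes was not computed. The RARS1 call was lost under 13 of 17 alternatives, that of SARS2 under 9, that of WARS2 under 5 and that of FARSA under 3.

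The other 17 synthetases with reads were called in neither nascent nor total RNA. They were FARSB, HARS1, KARS1, LARS1, NARS1, QARS1, SARS1, WARS1, YARS1 and CARS1 for the cytosol, and EARS2, FARS2, HARS2, LARS2, MARS2, RARS2 and TARS2 for mitochondria. HARS1 and HARS2, the histidine enzymes, are divergent neighbours at chr5:140673035-140691537 and chr5:140691430-140699305. HARS1 had 1 to 18 T>C reads in the 10 libraries of which 1 and 3 were in the libraries with both agents (adjusted p = 0.253 against 6 and 15 in control cells).

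**Figure D3:**
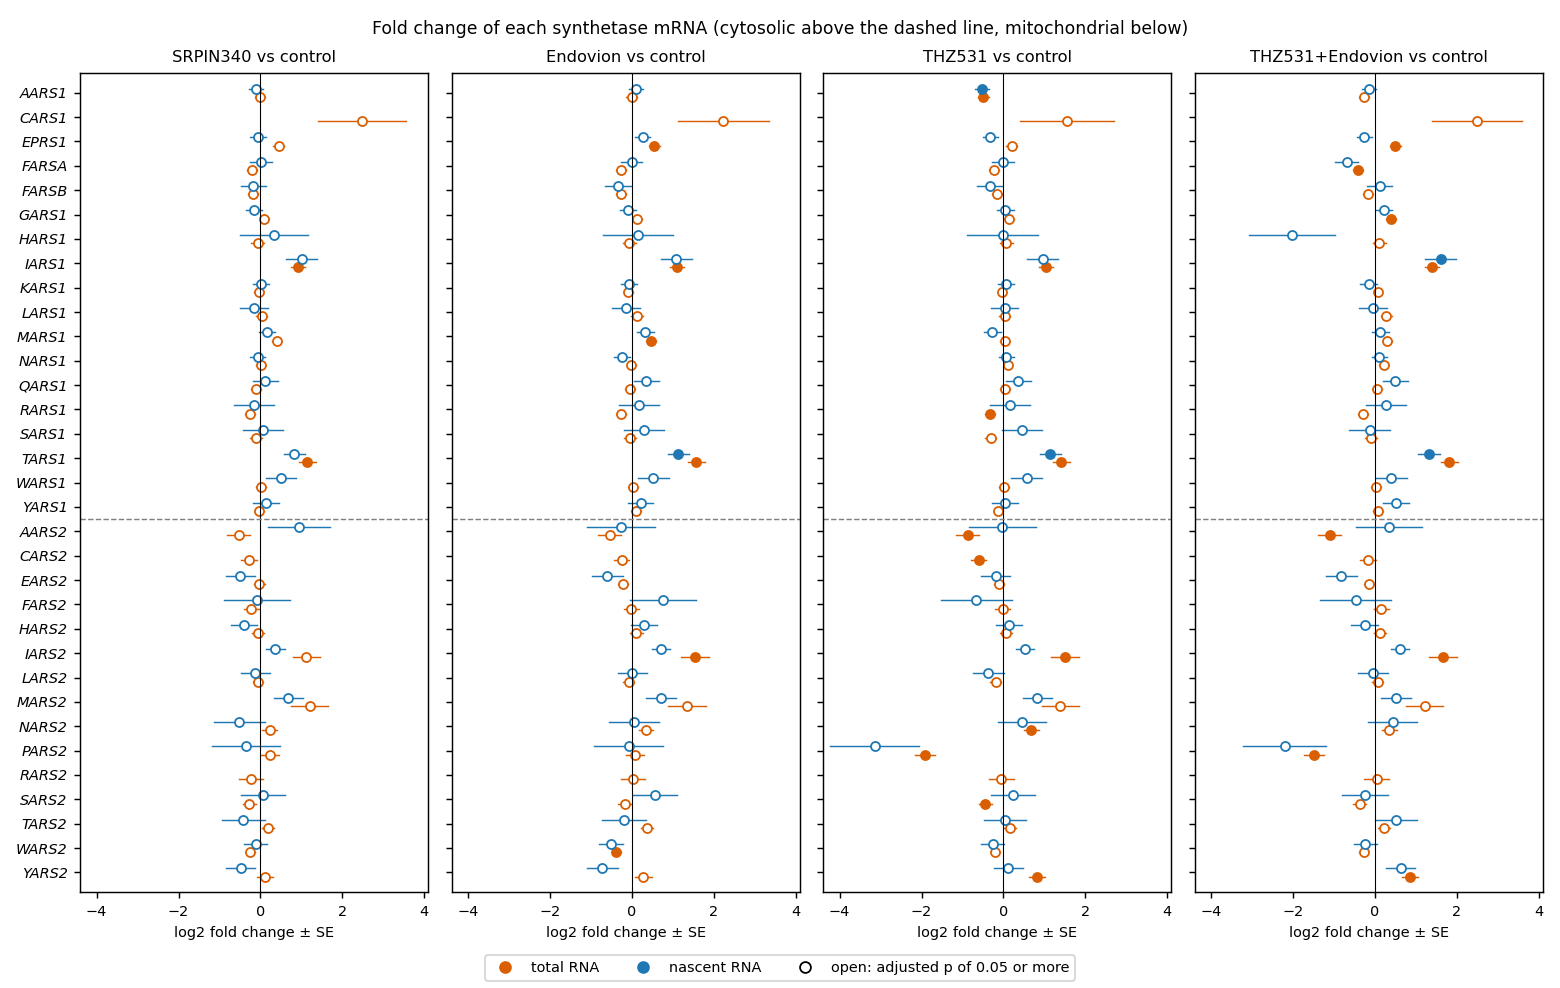
Log2 fold change (horizontal axis, with SE as the line through each point) of every synthetase in nascent RNA (blue) and total RNA (orange) against control cells, for the 4 treatments. Filled points have an adjusted p below 0.05, and the dashed line separates cytosolic from mitochondrial genes. TARS1 and IARS1 are filled in total RNA in all 4 panels, PARS2 in the 2 panels with THZ531, and most other genes lie near 0.

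The test of the labelled share gives a log2 odds ratio, in which converted and unconverted reads of a gene are compared relative to all genes. IARS2 was the one synthetase called, with both agents. Its share was 7.54% (95% Wilson interval 6.37 to 8.91%) and 13.1% (11.1 to 15.4%) in the control libraries, and 4.93% (4.28 to 5.68%) and 4.22% (3.56 to 5.01%) with both agents. The mean share was 5.67% ± 0.0620 with SRPIN340, 5.21% ± 0.302 with Endovion and 5.53% ± 2.16 with THZ531 (SD, n = 2 each), and no treated library reached either control. The log2 odds ratio with both agents was -1.05 (SE 0.25, adjusted p = 0.0193). With SRPIN340 it was -0.78 (adjusted p = 0.28), with Endovion -0.84 (0.143) and with THZ531 -0.88 (0.119). In these 3 comparisons edgeR called 0 synthetases, while an unadjusted p under 0.05 was found for 2, 2 and 3 of them beside 8.14%, 9.32% and 10.1% of all genes. The count of 1 with both agents dropped to 0 without control replicate 2, and it rose to 2 without control replicate 1. Shares called over all 9946 genes were 0.181% with SRPIN340, 0.442% with Endovion, 0.342% with THZ531 and 1.02% with both agents. EPRS1 had the next smallest p with both agents, with a mean share of 17.5% ± 6.46 in control cells and 9.72% ± 1.49 with both agents (SD, n = 2 each), and a log2 odds ratio of -0.79 (SE 0.22, adjusted p = 0.0685). For TARS1 the log2 odds ratio lay between -0.43 and -0.14 and for IARS1 between 0.06 and 0.34 over the 4 treatments, and none was called.

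**Figure D4:**
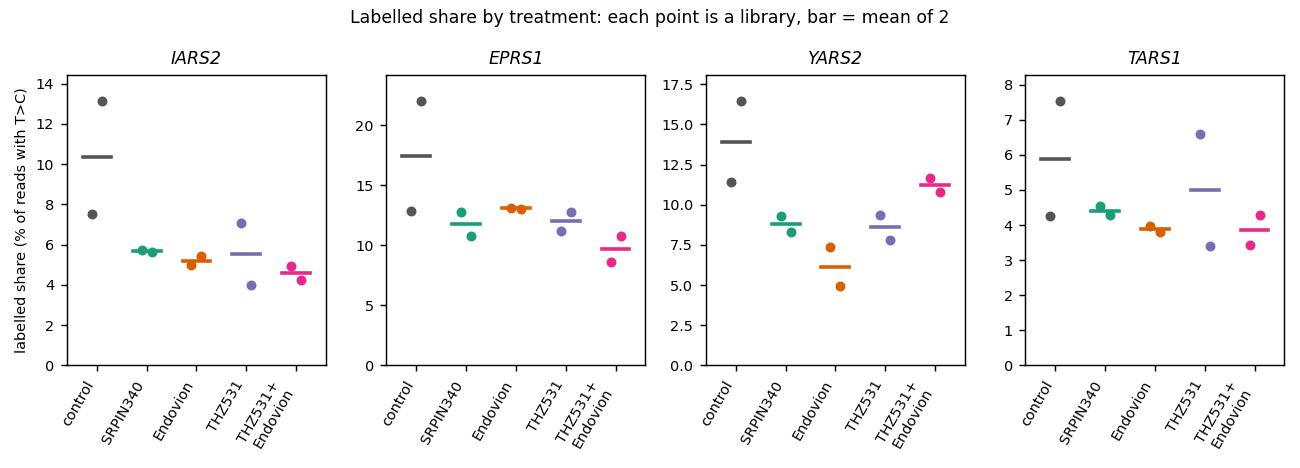
Labelled share (percent of reads with a T>C conversion, vertical axis) of IARS2, EPRS1, YARS2 and TARS1 by treatment. Points are libraries and bars the mean of 2. For IARS2 all 8 treated libraries lie below both control libraries, at 7.54% and 13.1%, and for TARS1 the groups overlap.

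As a family the synthetases stayed close to all other genes. In nascent RNA the median log2 fold change over the 30 tested was -0.06 with SRPIN340, 0.12 with Endovion, 0.05 with THZ531 and 0.11 with both agents, beside -0.01, -0.01, -0.02 and -0.01 over all genes. In total RNA the median over 33 was -0.02, 0.02, 0.01 and 0.07, beside 0.03, 0.02, -0.01 and -0.00. Cytosolic and mitochondrial genes were set against each other in nascent RNA in 2 ways. The cytosolic minus the mitochondrial median of the fitted log2 fold changes was 0.14 with SRPIN340, 0.17 with Endovion, 0.01 with THZ531 and 0.18 with both agents. Within each library, the cytosolic minus the mitochondrial median of log2 levels, each gene centred on its mean over the 10 libraries, was -0.23 and -0.18 in control cells, -0.03 and 0.19 with SRPIN340, -0.11 and 0.14 with Endovion, 0.01 and 0.03 with THZ531, and 0.23 and 0.15 with both agents. All 8 treated libraries lay above both controls on this measure, where the pooled SD between replicates was 0.11. They share the same 2 controls, and the measure was not computed for other gene sets. With THZ531 the 2 ways differed, as the difference of fitted medians there was only 0.01. No test was made of either measure. With Endovion the difference of fitted medians changed sign, to -0.13 without control replicate 1 and to -0.06 without Endovion replicate 2. Of the cytosolic genes in total RNA 2 rose with SRPIN340, 4 rose with Endovion, 2 rose and 2 fell with THZ531, and 4 rose and 1 fell with both agents. Of the mitochondrial genes 0 changed with SRPIN340, 1 rose and 1 fell with Endovion, 3 rose and 4 fell with THZ531, and 2 rose and 2 fell with both agents. Over all genes 1.96%, 11.4%, 30.7% and 29% were called in these comparisons. Of the 7 members of the multi-synthetase complex listed here 1 rose with SRPIN340, 3 with Endovion, and 2 with both agents, and with THZ531 1 rose and 1 fell, where 1.82%, 8.9%, 16.6% and 16.6% of all genes rose with SRPIN340, Endovion, both agents and THZ531.

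The cytosolic genes were also compared by the composite-element letters in their promoter windows, as a description with no test. The letters were chosen with earlier results of these data known, so the comparison is not independent of those results. In total RNA the median log2 fold change of the 7 genes with the letters was 0.40 with SRPIN340, 0.46 with Endovion, 0.13 with THZ531 and 0.39 with both agents. Over the 9 genes whose window lacked them it was -0.11, -0.07, -0.03 and 0.02. CARS1 is among the 7 with at most 17 reads per library, and without it the medians over 6 genes were 0.25, 0.30, 0.12 and 0.34. The genes with the letters did not move as 1 group. TARS1 and IARS1 rose in every comparison, MARS1 with Endovion and GARS1 with both agents, AARS1 fell with THZ531, and NARS1 was called in none. Of the cytosolic genes without the letters, EPRS1 rose with Endovion and with both agents, RARS1 fell with THZ531 and FARSA with both agents. Mitochondrial genes are outside this comparison. Among them IARS2, without the letters, rose with Endovion, with THZ531 and with both agents. YARS2, with the letters, rose with THZ531 and with both agents. In nascent RNA the medians were 0.05, 0.21, 0.06 and 0.17 with the letters and 0.01, 0.18, 0.05 and -0.13 without them.

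**Figure D5:**
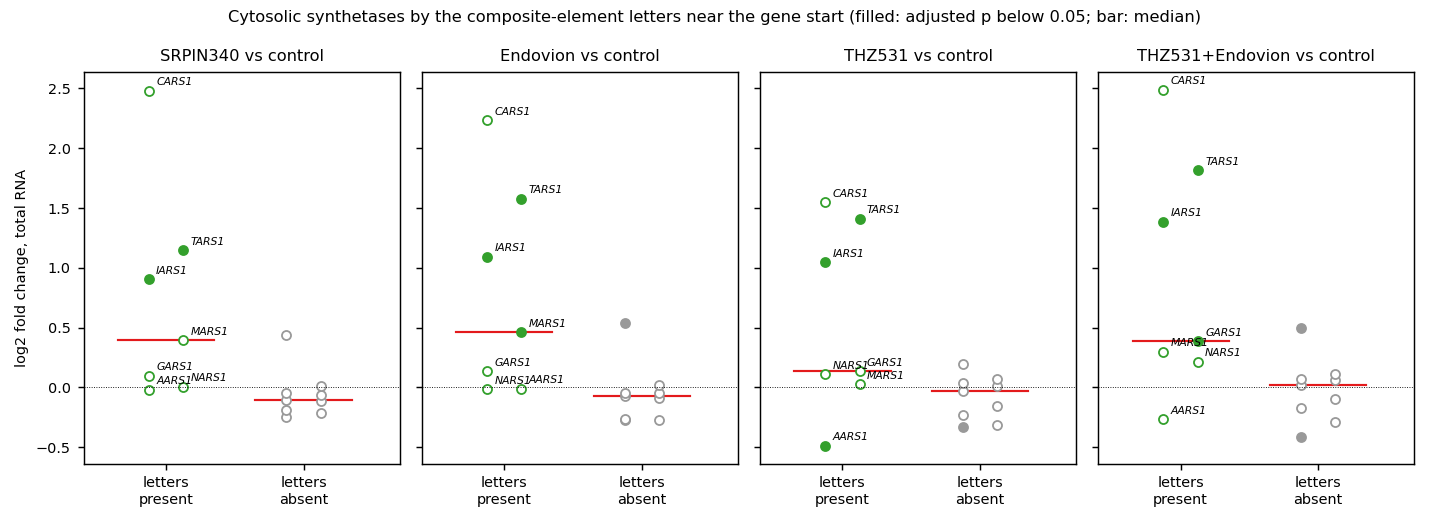
Log2 fold change in total RNA (vertical axis) of cytosolic synthetases with (left, green, named) and without (right, grey) the letters TGATGNAA in the promoter window, for the 4 treatments. Filled points have an adjusted p below 0.05 and red bars are medians. The bar of the 7 genes with the letters lies above that of the 9 without in each panel, with TARS1 and IARS1 filled in all 4 and AARS1 filled below 0 with THZ531. Filled points on the right are EPRS1 with Endovion and with both agents, RARS1 with THZ531 and FARSA with both agents. The open point of CARS1, which the left bar includes, rests on 0 to 17 reads. The letters were chosen with earlier results of these data known.

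Whether Endovion changed synthetases in cells that also received THZ531 was tested between the 2 THZ531 groups. In nascent RNA 0 of 30 were called, where 0.322% of all genes were. DESeq2 also called 0, and 2 had an unadjusted p under 0.05 in edgeR (7.8% of all genes). These were FARSA, at a log2 fold change of -0.67 (SE 0.28, adjusted p = 0.493), and AARS1, at 0.38. The T>C reads of FARSA were 134 and 76 with THZ531 and 54 and 59 with both agents. In total RNA 0 of 33 were called, where 0.511% of all genes were, and DESeq2 also called 0. In edgeR 4 had an unadjusted p under 0.05 (11% of all genes), all of them higher with both agents. They were MARS1 at 0.27 (SE 0.11, adjusted p = 0.38), CARS2 at 0.44, EPRS1 at 0.30 and GARS1 at 0.25. In this comparison 26 of 33 synthetases and 7 of 7 members of the multi-synthetase complex had a log2 fold change above 0, as did 52.7% of all genes, with medians of 0.10 and 0.25 beside 0.02 over all genes, and no test was made of these counts. In the labelled share 0 synthetases were called, as over all genes (0%), and 2 had an unadjusted p under 0.05 (4.99% of all genes).

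The factorial interaction asked whether Endovion acted differently with and without THZ531. No synthetase was called in nascent RNA (background 0.302%), in total RNA (0.00681%) or in the labelled share (0.0101%), and DESeq2 called 0 in nascent RNA. An unadjusted p under 0.05 was given by edgeR for 3 synthetases in nascent RNA (7.71% of all genes), 5 in total RNA (13%) and 3 in the labelled share (6.09%). TARS1 had the smallest p in both, with an interaction of -0.96 (SE 0.36, adjusted p = 0.401) in nascent RNA and -1.17 (SE 0.29, adjusted p = 0.235) in total RNA. Its rise with both agents was thus smaller than the sum of the 2 single rises on the log2 scale, by a difference that was not called. The next in total RNA were IARS1 at -0.75, IARS2 at -1.37, NARS2 at -0.68 and CARS2 at 0.69. In nascent RNA they were YARS2 at 1.23 and MARS2 at -1.02.

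Genes that work with the synthetases were counted from lists of genes named by function. Of 30 genes of the amino acid response, namely ATF4 and genes known to depend on it, nascent RNA of 3 rose with SRPIN340, 4 with Endovion and 7 with both agents, with 0 that fell. With THZ531 alone 1 rose and 1 fell. Over all genes 1.04% were called with SRPIN340, 2.66% with Endovion (2.04% up), 8.1% with both agents (4.61% up) and 7.46% with THZ531 (3.86% up). In total RNA 4 of the 30 rose with SRPIN340, 12 with Endovion and 16 with both agents, where 1 fell, and with THZ531 8 rose and 5 fell. In that order 1.96%, 11.4%, 29% and 30.7% of all genes were called, with 1.82%, 8.9%, 16.6% and 16.6% up. SLC7A11, the cystine and glutamate exchanger, rose in nascent RNA with SRPIN340 (log2 fold change 1.27, SE 0.18, adjusted p = 1.67e-05), Endovion (1.50, SE 0.19, adjusted p = 1.05e-07), THZ531 (0.60, SE 0.19, adjusted p = 0.0382) and both agents (1.44, SE 0.19, adjusted p = 1.57e-07). CHAC1, which degrades glutathione, rose with SRPIN340 by 1.62, with Endovion by 1.78 and with both agents by 1.23. Its value with THZ531 was -0.96 (adjusted p = 0.139). Against THZ531 alone, SLC7A11 (0.84, adjusted p = 0.0127) and CHAC1 (2.19, adjusted p = 0.000703) were the 2 of 30 called in nascent RNA. Median log2 fold changes of the 30 genes were 0.29, 0.44, -0.14 and 0.43 in nascent RNA and 0.43, 0.52, 0.00 and 0.39 in total RNA for SRPIN340, Endovion, THZ531 and both agents. Asparagine synthetase (ASNS), a classical target of ATF4, was called in no comparison of nascent or total RNA, with nascent log2 fold changes from -0.25 to 0.29.

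Of 15 genes for the scaffold of the complex, tRNA delivery and special charging, 12 were tested in nascent RNA. DTD1, which removes D-amino acids from tRNA, rose by 3.08 with Endovion (SE 0.61, adjusted p = 0.00951), 2.91 with THZ531 and 2.87 with both agents. Its T>C reads were 14 and 9 in control cells, 30 and 110 with SRPIN340, 125 and 44 with Endovion, 64 and 84 with THZ531 and 63 and 69 with both agents. With SRPIN340 its value was 2.44 and was not called. No other gene of the 12 was called with Endovion, THZ531 or both agents, where 2.66%, 7.46% and 8.1% of all genes were. DTD1 was called in no treatment in total RNA. Calls of genes other than synthetases were not checked under the alternatives. In total RNA 0 of the 15 were called with SRPIN340, 1 with Endovion, 3 with THZ531 and 3 with both agents, beside 1.96%, 11.4%, 30.7% and 29% of all genes. AIMP1, a scaffold protein of the complex, rose with THZ531 by 0.54 and with both agents by 0.47, TRNT1, which adds the CCA end, rose with THZ531 by 0.74, and XPOT, which exports tRNA, fell by 0.42. AIMP2, another scaffold protein, fell with both agents by 0.33. SEPSECS, which completes selenocysteine on its tRNA, rose with Endovion by 1.09 and with both agents by 0.84.

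Of 13 mitochondrial translation factors, 11 were tested in nascent RNA, and TSFM, an elongation factor, rose with Endovion by 1.15 (SE 0.31, adjusted p = 0.0218) and with both agents by 1.05 (SE 0.31, adjusted p = 0.0225). No other factor was called in nascent RNA in these comparisons, where 2.66% and 8.1% of all genes were called. In total RNA 1 of the 13 rose with Endovion (GFM2), where 8.9% of all genes rose. With THZ531 3 rose and 3 fell, and with both agents 3 rose and 2 fell, where 30.7% and 29% of all genes were called. The factors that rose with THZ531 and with both agents were GFM1 (0.56 and 0.47), GFM2 (1.05 and 1.34) and TSFM (1.37 and 1.44), which act in elongation and ribosome recycling. Among those that fell were the release factor MTRF1 (-1.42 and -1.67) and GATC (-0.61 and -0.39), a subunit of the enzyme that completes glutaminyl-tRNA in mitochondria, together with MTFMT, the formyltransferase of the initiator tRNA, with THZ531 alone (-0.69).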

How the data were processed

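The members, gene lists and motif were chosen with earlier results of these data known. RNA was alkylated and sequenced from its 3′ ends, and the authors mapped the reads with SLAM-DUNK and deposited 1 table per library with a line per 3′ UTR interval in hg38. The submitters' processing notes name Bowtie2 2.3.4.1, SAMtools 1.6 and DESeq2 1.38.2. The version of SLAM-DUNK, its masking of variants, the conversions a T>C read needs and any use of molecular identifiers are not given in the sources used here, and no library without 4sU was analysed here, so background conversion was not measured and intervals and limits cover counting error only. Raw counts, as deposited by the authors, were used per interval for all reads, for reads with a conversion, for conversions and for covered T positions. The deposited conversion rate, a fraction, and the deposited read CPM, treated as a score, were not used. Cells given THZ531 and SRPIN340 together were not analysed here.

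Of the 104653 intervals, 96427 lay on the main chromosomes, and those on other contigs were left out. Of the 96427, 92910 matched GENCODE v44. The unmatched intervals of the main chromosomes, with 3.53% of the T>C reads there, were left out too. Intervals of a gene's transcripts overlap, which would count 48.8% of T>C reads again, so among overlapping intervals the one with most reads was kept (57587 intervals, 31015 genes). Of 106 intervals of synthetases 55 were kept, and their T content equalled that of hg38 in 55. Counts are of 3′ ends, so levels were not compared between genes. Libraries held 19315565 to 30047926 reads on genes.

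T>C reads (nascent RNA, 9946 genes tested) and all reads (total RNA, 14690 genes tested) were fitted with edgeR 4.0.16 in R 4.3.3 (TMM, filterByExpr, robust quasi-likelihood fit over all 10 libraries, no covariate). The labelled share was tested as the interaction of group with read class, with library as a block. CPM are reads divided by the TMM-scaled library size, times 1000000. Scripts were tested on simulated data. Genes named in full are those called in any comparison, the uncalled member with the smallest p per comparison, the highest and lowest control share in each compartment, and at most 4 called genes per companion list and comparison. CHAC1 with both agents, ASNS and the smaller calls of the companion lists were named after their values were seen. Promoter windows are RefSeq's (GRCh38.p14), whose gene starts can differ from GENCODE's. Replicates of a group differed by more than sampling noise (chi-square per degree of freedom 3.54 to 4.90). Alternatives were DESeq2 1.42.0, RLE scaling, scaling by all reads, no filter, a plain sum of intervals, the single best interval, only the groups compared, the replicate number as a block, and leaving out each library.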

Additional observations from a re-analysis of the deposited data

How the results depend on the processing

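Over 33 called values of named synthetases and 566 settings, 465 kept direction and call, 101 kept direction and lost the call, and 0 reversed. Leaving out a library assumes that the lone sample left in its group varies like the other groups. With at most 2 T>C reads per library for CARS1, a change of its nascent RNA was not detectable at this depth. The cause of the changes below was not tested.

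The number of synthetases called in nascent RNA with THZ531, 2, was 1 with DESeq2, with scaling by all reads and with only the groups compared, and 0 in a plain sum of intervals. With Endovion it was 0 instead of 1 in the plain sum, where the cytosolic minus mitochondrial difference was 0.28. In total RNA with SRPIN340 it was 0 instead of 2 in the plain sum and with only the groups compared, and with THZ531 7 instead of 11 with only the groups compared. Without the filter 1 labelled share was called with each of SRPIN340, Endovion and THZ531 and 2 with both agents, and in the plain sum 0 with both agents.

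Over the fits that each leave out 1 library, nascent counts ranged from 0 to 1 with Endovion, 0 to 2 with THZ531 and 1 to 2 with both agents. Total counts ranged from 0 to 4 with SRPIN340, 2 to 7 with Endovion, 3 to 13 with THZ531 and 3 to 12 with both agents. Share counts ranged from 0 to 2 with SRPIN340, 0 to 1 with Endovion, 0 to 2 with THZ531 and 0 to 2 with both agents. The cytosolic minus mitochondrial difference ranged from 0.13 to 0.45 with SRPIN340, -0.13 to 0.55 with Endovion, -0.04 to 0.06 with THZ531 and 0.13 to 0.31 with both agents. The lowest total counts with Endovion, THZ531 and both agents came without control replicate 2, and without THZ531 replicate 2 the count with THZ531 was 4. With Endovion it was also 2 without either Endovion library, and with both agents 5 without replicate 2 of that group. Total calls with SRPIN340 were 4 without control replicate 1, 0 without control replicate 2 or SRPIN340 replicate 2, and 1 without any 1 library of Endovion or of the combination. Nascent calls with THZ531 were 0 without THZ531 replicate 1 and 1 without control replicate 2, THZ531 replicate 2, either SRPIN340 library or Endovion replicate 1. Nascent calls with both agents were 1 without control replicate 2 or without replicate 1 of the combination. Share calls without control replicate 1 were 2 with SRPIN340, 1 with Endovion, 2 with THZ531 and 2 with both agents, and with both agents 0 without control replicate 2 or either library of the combination.

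Over all tested genes the replicate numbers showed little pairing of the libraries. Deviations of same-numbered libraries correlated between -0.071 and 0.062 in nascent RNA, with 0 of 10 pairs above 0.1. In total RNA they correlated between -0.15 and 0.199, with 1 of 10 above 0.1 (SRPIN340 with THZ531). Low correlations over all genes cannot exclude a batch that touched part of them. With the replicate number as a block, total calls with SRPIN340 were 1 instead of 2, and other counts stayed within 1.5 times. The calls lost were those of TARS1 with SRPIN340 (adjusted p = 0.0519), IARS2 with Endovion (0.0579) and SARS2 with THZ531 (0.0514).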
